A study of Mus musculus with 12 samples.

Results

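Genes whose proteins bind, retain or degrade inosine-containing RNA were examined in the frontal cortex of mice that lack the editing enzyme ADAR2. The 8 genes were chosen by name, as proteins known to handle edited RNA or to build paraspeckles: Nono, Sfpq, Pspc1, Matr3, Snd1, Endov, Stau1 and Stau2. All 8 were found among the 15191 genes of the authors' gene table, 7 under their own symbols and Endov under its older name A730011L01Rik. The family name Staufen, given with them as a 9th name, is the symbol of no listed gene and stands here for Stau1 and Stau2. They hold 168 of the 156805 listed exon bins and 0 of the 143 listed editing sites.

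RNA was sequenced in 12 libraries of male C57BL/6 mice. The 6 Adar2-/- Gria2R/R libraries were compared with 6 libraries of Adar2+/+ Gria2R/R litter mates, so the Gria2R allele was shared by knockouts and controls. It encodes in the genome the arginine that editing otherwise writes into this AMPA receptor subunit. The sources used here give neither the age of the mice nor how the Adar2 allele was made. The files hold the authors' own group comparisons with no value per library, so no SD per group is given. For variation among libraries, the values given here rest on the deposited p-values.

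ADAR enzymes turn adenosine into inosine in double-stranded RNA, and other proteins then read that base. NONO, SFPQ and PSPC1 are related proteins of the DBHS family, which pair with each other and build paraspeckles, nuclear bodies formed on the long non-coding RNA Neat1. A complex of NONO, SFPQ and matrin 3, the product of Matr3, binds heavily edited RNA and is known for holding it in the nucleus. Endonuclease V, the product of Endov, cuts RNA next to inosine, and the Tudor nuclease SND1 promotes the breakdown of heavily edited double-stranded RNA. The Staufen proteins STAU1 and STAU2 bind double-stranded stretches of mRNA. Staufen binding can lead to decay that uses UPF1, and STAU2 is best known in neurons for RNA transport into dendrites.

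Conditions in the gene table are called A and B without a genotype, so log2 differences of mRNA levels are given as A over B, turned round from the deposited B over A, with no genotype attached. Adarb1, the gene of ADAR2, had a log2 difference of -2.21 in the authors' deposited table, 4.62-fold lower in A (adjusted p = 3.06e-126), and 8 of its 18 listed exon bins passed an adjusted p under 0.05. Its level was not used to name the conditions. Of 7 markers of cortical tissue 6 were listed, and the authors' deposited table gave them mean normalized counts between 333 and 81736. Of 2 markers of hindbrain granule cells only Cbln1 was listed, at 21.3 in the authors' deposited table. None of the 19 listed markers of cortex and other cell types passed, or had an unadjusted p under 0.05, and their log2 differences lay between -0.11 and 0.28 in the authors' deposited table.

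The first comparison was of mRNA levels. None of the 8 genes passed an adjusted p under 0.05 between the conditions, and the adjusted p was 1 for each in the authors' deposited table. Over all listed genes the share that passed was 0.0197%, which is 3 of 15191. None of the 8 had an unadjusted p under 0.05 either, where 1.86% of all genes did. In sign, 4 of the 8 stood higher and 4 lower in A, with a median of -0.0032 against 0.0063 over all genes, and all 8 lay within 1.2-fold, as did 91.6% of all genes. In bulk tissue such as this, fewer cells of a type and less RNA per cell cannot be told apart.

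Among the DBHS genes, Nono had a normalized count of 3592, averaged over A and B, and a log2 difference of 0.0081 in the authors' deposited table (p = 0.847). Sfpq had a mean of 4258 and a difference of -0.023 in the authors' deposited table (p = 0.524). A larger difference than that of Nono was seen for 92.3% of all listed genes, and than that of Sfpq for 78.4%. Pspc1 had a mean of 1981 and a log2 difference of -0.12 in the authors' deposited table, 1.09-fold lower in A, with the smallest p of the 8 (p = 0.135). A difference larger than that of Pspc1 was seen for 24.7% of all listed genes, and whether Pspc1 differed from Nono or Sfpq was not tested. Matr3, the nuclear matrix partner of NONO and SFPQ, had a mean of 25433 and a log2 difference of -0.0073 in the authors' deposited table (p = 0.988).

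Both nuclease genes differed little. Snd1 had a mean normalized count of 2616 and a log2 difference of 0.00084 in the authors' deposited table (p = 0.992), smaller than that of 99.2% of listed genes. Centred on the median of all genes, which is larger than this difference, it stood at -0.0055. Endov had a mean of 638 and a log2 difference of 0.020 in the authors' deposited table (p = 0.944). The Staufen genes differed in sign. Stau1 had the largest difference of the 8, with a mean of 978 and a log2 difference of 0.15 in the authors' deposited table, 1.11-fold higher in A (p = 0.243). Stau2 had a mean of 5546 and a log2 difference of -0.082 in the authors' deposited table, 1.06-fold lower in A (p = 0.409). Whether Stau1 and Stau2 differed from each other was not tested, since this needs values per library.

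**Figure D1:**
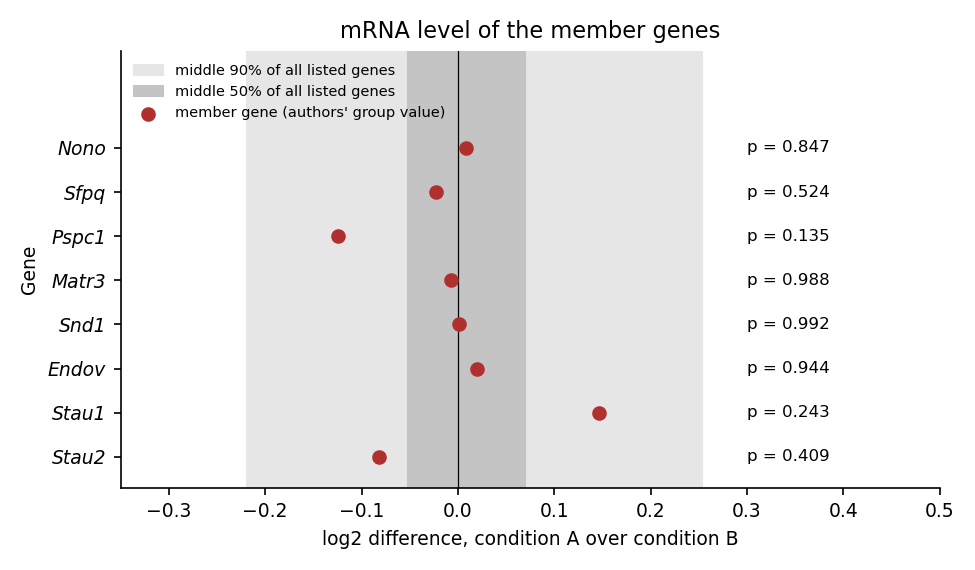
Log2 difference of mRNA level of the 8 genes (x axis, condition A over condition B; 1 point per gene, the authors' group value, with its unadjusted p at the right) over grey bands of the middle 50% and 90% of all listed genes. Nono, Sfpq, Matr3, Snd1 and Endov lie in the inner band, and Pspc1 at -0.12, Stau2 at -0.082 and Stau1 at 0.15 lie outside it but inside the outer band.

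To set the levels of different genes side by side, the mean normalized counts were divided by the length of all annotated exons of each gene in GENCODE M21. That annotation is of GRCm38, not of mm9, the build the submitters name, so the values are approximate. The length also joins the exons of all isoforms and can exceed that of any 1 mRNA. For Nono it was 4375 bases, against 2562 for its longest coding transcript, and for Matr3 10158 against 6262. The order below depends on this choice of length. The order was Matr3 with 2504 counts per kb, Sfpq with 898, Stau2 with 822, Nono with 821, Pspc1 with 345, Snd1 with 268, Stau1 with 161 and Endov with 104. Stau2 and Nono stood within 1 count per kb of each other. The spread over libraries is not known, so no neighbours in this order can be said to differ beyond it. Among the DBHS genes Pspc1 was lowest per kb, and of the Staufen genes Stau2, the form known from neurons, stood above Stau1.

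Counting could blur some of these genes. The longest coding transcript of Nono aligned to processed pseudogenes, Gm8806 over 1419 bases with 97.2% identity and Gm5171 over 1428 bases with 94.5% identity, in GENCODE M21. The longest coding transcript of Matr3 shared 1313 identical bases with Gm28285, a gene annotated over the same stretch of its chromosome and on the same strand. None of these 3, which aligned over at least 1000 bases, was found by name among the listed genes. Matr3 also had shorter alignments to transcripts of many other genes, the longest over 548 bases with 91.6% identity to the pseudogene Matr3-ps2. Some of these genes were listed, such as Unc13d, over 215 bases with 94.9% identity. Whether reads of Nono or Matr3 were split with any of these genes was not tested. No other member had an alignment of at least 200 bases at 90% identity to a transcript of another gene. Lrrc4 overlaps the span of Snd1 on the opposite strand, with a mean normalized count of 3058 in the authors' deposited table. Whether strand was used in counting is unknown, and whether Snd1 bins hold reads of Lrrc4 was not tested. The Sfpq locus overlaps another gene on its own strand.

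That gene is Gm12940, a non-coding transcript on the Sfpq strand of chromosome 4, and RefSeq lists its name as a synonym of Sfpq. It has its own row among the listed genes, and it is described here after its values were seen. Gm12940 had a mean normalized count of 964 and a log2 difference of -0.25 in the authors' deposited table, 1.19-fold lower in A (p = 0.0066, adjusted p = 1). Its p was the 52nd smallest of 15191, while that of Sfpq itself was 0.524. Gm12940 did not pass, and reads over bases that both genes hold cannot be told apart by gene.

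The next comparison was of exon usage, the share of a gene's reads that fall in each exon bin. Its table names the genotypes, and values are given as log2 of knockout over control, turned round from the deposited control over Adar2. None of the 168 bins passed an adjusted p under 0.05, and the smallest adjusted p was 1 in the authors' deposited table. Over all 149137 bins with a p, 0.00738% passed. An unadjusted p under 0.05 was found for 4 of the 168 bins, or 2.38%, in the authors' deposited table, where 1.67% of all bins had one. Of the 4, 3 were lower in the knockout, a direction that 0.909% of all bins took with such a p, and 1 was higher, against 0.76% of all bins. By 1 Simes p per gene over its bins, none of the 8 genes passed, against 0.0237% of 12669 genes. In sign the bins were evenly placed, 83 higher and 85 lower in the knockout, with a median of -0.0039 against 0.00069 over all bins. Since usage is relative to a gene's own reads, a near-even split is largely built into the measure.

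The 4 bins with a low unadjusted p lay in Sfpq and Snd1. In the bins filed jointly under Sfpq and Gm12940, E030 stood at -0.38 (p = 0.00346), E022 at -0.24 (p = 0.00777) and E015 at 0.17 (p = 0.0277) in the authors' deposited table. Their mean normalized counts were 269.9 for E030, 259 for E022 and 461 for E015 in the authors' deposited table. E030 carries the highest number of the 29 joint bins, and of the 9 bins from E022 to E030, 6 were lower in the knockout. From E010 to E018, 8 of 9 joint bins were higher in the knockout. The bin numbers carry no position and the joint ID does not say which gene a bin belongs to, so neither E022 nor E030 can be assigned to Sfpq or to Gm12940. With the joint bins left out, 1 of 139 bins had an unadjusted p under 0.05, E026 of Snd1.

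E026 of Snd1 stood at -0.30 with a mean normalized count of 148 in the authors' deposited table (p = 0.00537, adjusted p = 1). Its listed neighbours E023 and E028 were lower in the knockout as well, at -0.15 and -0.18 (p = 0.137 and 0.116) in the authors' deposited table. Further along Snd1, 7 of the 8 bins from E033 to E040 were higher in the knockout, up to 0.23 at E040 (p = 0.0789) in the authors' deposited table. The whole-gene level of Snd1 differed by 0.00084 on the log2 scale, A over B. Usage is a share of the gene's reads, so bins of both signs go with any gene level.

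**Figure D2:**
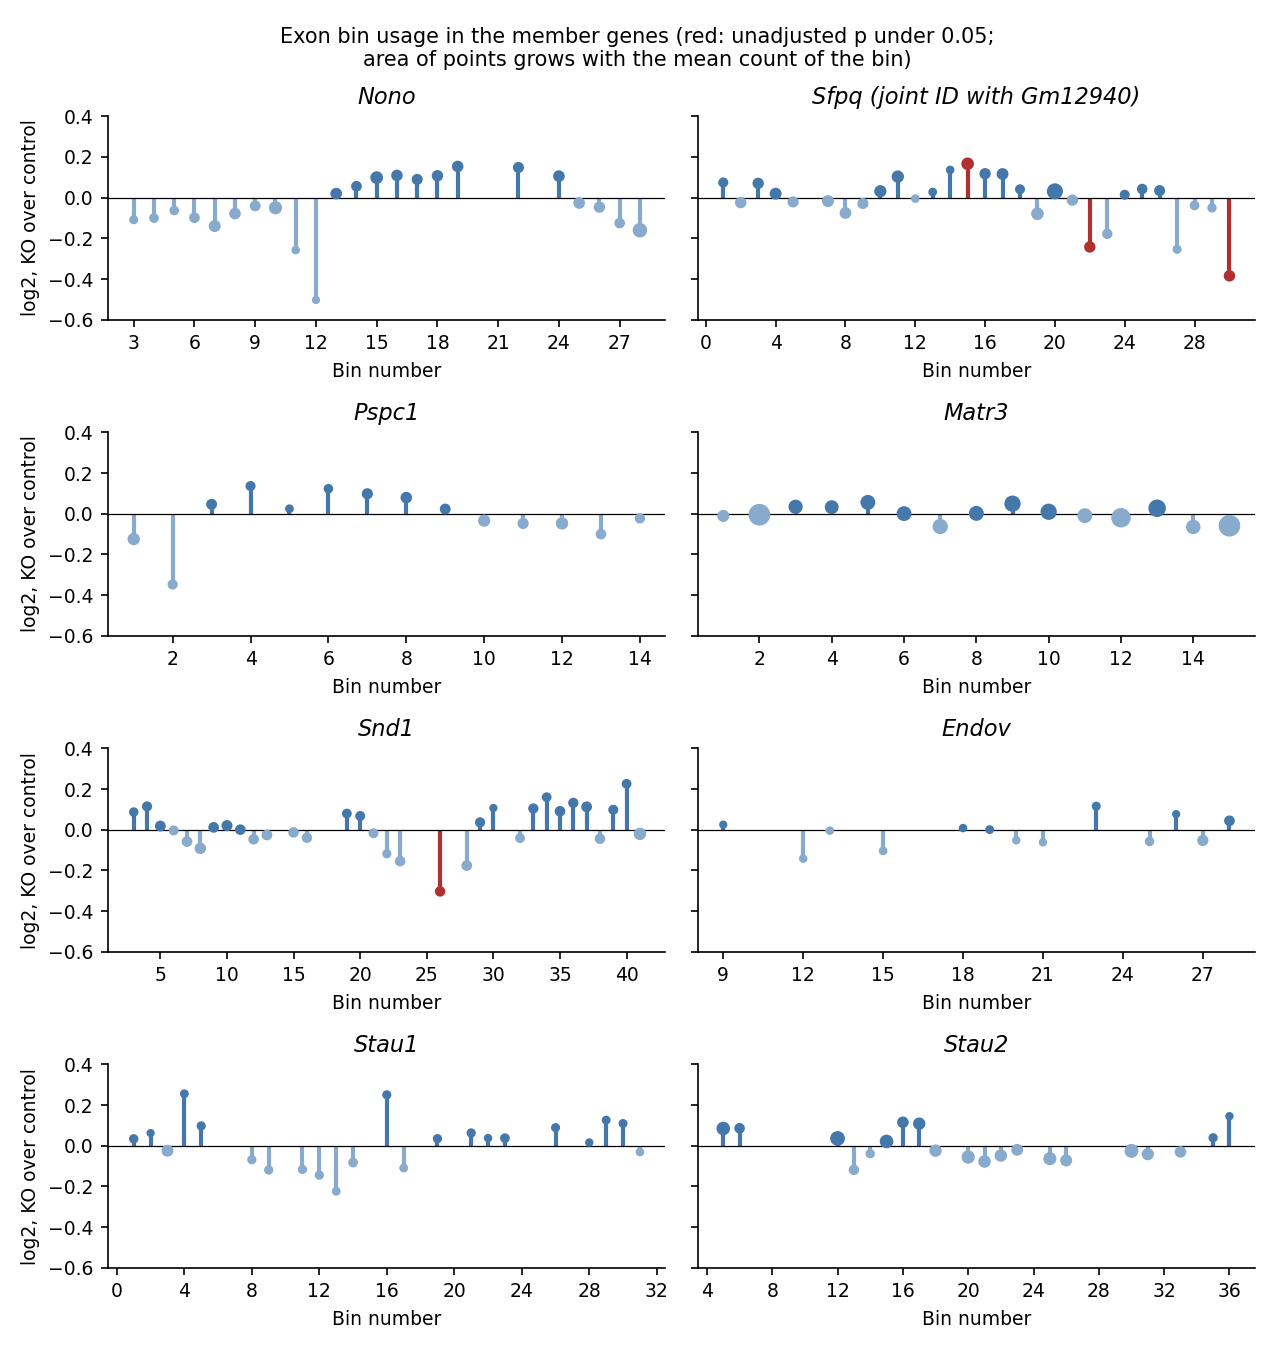
Log2 usage, knockout over control, of each listed exon bin (y axis) against its bin number (x axis) in the 8 genes; point area grows with the mean normalized count of the bin, and red marks an unadjusted p under 0.05. Bins of like sign stand beside each other in Nono, Pspc1 and Stau2, and the 4 red bins are 3 of the joint Sfpq and Gm12940 ID and E026 of Snd1.

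Nono had 23 listed bins and none with an unadjusted p under 0.05. Its lowest bin was E012 at -0.50 (p = 0.0583), which had a mean normalized count of only 22.5, and its highest was E019 at 0.15 (p = 0.0813) with a count of 271, in the authors' deposited table. The bins fell into blocks by sign along the gene: all 10 from E003 to E012 were lower in the knockout, all 9 from E013 to E024 higher, and all 4 from E025 to E028 lower. The medians of these blocks were -0.099, 0.11 and -0.086. Bins next to each other can share reads, and the blocks were noticed after the values were seen.

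Pspc1 had 14 listed bins with the same kind of order. E001 and E002 were lower in the knockout, the 7 bins from E003 to E009 higher and the 5 from E010 to E014 lower. The lowest was E002 at -0.35 (p = 0.103) and the highest E004 at 0.14 (p = 0.249) in the authors' deposited table. The 15 bins of Matr3, with mean counts from 346 to 7149, lay between -0.065 at E014 (p = 0.415) and 0.056 at E005 (p = 0.590) in the authors' deposited table. The median size of a bin difference was 0.027 in Matr3, against 0.030 over all bins whose mean count reached 500 and 0.043 over those from 200 to 500. It was 0.10 in Nono and 0.064 in Pspc1, with median bin counts of 255 in Nono and 193 in Pspc1. The value of Nono was above the 0.043 of all bins from 200 to 500 counts. Over all bins from 100 to 200 counts the median size was 0.059. Whether count accounts for the differences among these genes was not tested.

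Of Endov 13 bins were listed, the fewest of the 8 genes, though its bin numbers reach 28, and their median count was 31.7. They lay between -0.14 at E012 (p = 0.549) and 0.12 at E023 (p = 0.442) in the authors' deposited table. Stau1 had 22 listed bins with a median count of 56.6, between -0.22 at E013 (p = 0.218) and 0.26 at E004 (p = 0.169) in the authors' deposited table. All 6 listed Stau1 bins from E008 to E014 were lower in the knockout, and the 8 from E019 to E030 were higher. Stau2 had 20 listed bins with a median count of 401, between -0.12 at E013 (p = 0.476) and 0.15 at E036 (p = 0.669) in the authors' deposited table. All 10 listed Stau2 bins from E018 to E033 were lower in the knockout, the lowest at -0.077. These runs of Stau1 and Stau2, and those of Pspc1, were picked after the values were seen and end where the sign changes. The stretches given for Snd1 and for the joint Sfpq bins were also picked after the values were seen.

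Over all 8 genes, 109 of 160 pairs of neighbouring bins, or 68.1%, had the same sign. Among 136468 such pairs of all genes the share was 63.9%, so runs of like sign are common in this table and the members' share is near that of the rest. The lowest same-sign share was in Endov, with 4 of 12 pairs, and the highest in Nono, with 20 of 22.

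The size of a bin difference moved with the count of the bin. Over all genes the median size was 0.12 for bins with a mean count from 20 to 50 and 0.030 for bins of at least 500. The members' medians in these classes were 0.070 over 26 bins and 0.034 over 23 bins. In the class from 200 to 500 counts the 50 member bins had a median of 0.071, against 0.043 over all bins of the class, and 10 of them exceeded the 90th percentile of that class. Counted over all classes, 21 of 168 member bins (12.5%) lay above the 90th percentile of their class, 7 of them in the joint Sfpq ID and 5 in Nono, with none in Matr3 or Endov. At or past 1.2-fold were 4 of 168 member bins (2.38%), 1 each in Nono, Sfpq, Pspc1 and Snd1, against 5.2% of all bins. Unlike the shares by class, these are not matched for count. A mean count from 20 to 50 was held by 26 of 168 member bins and by 42080 of all 149137 bins.

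**Figure D3:**
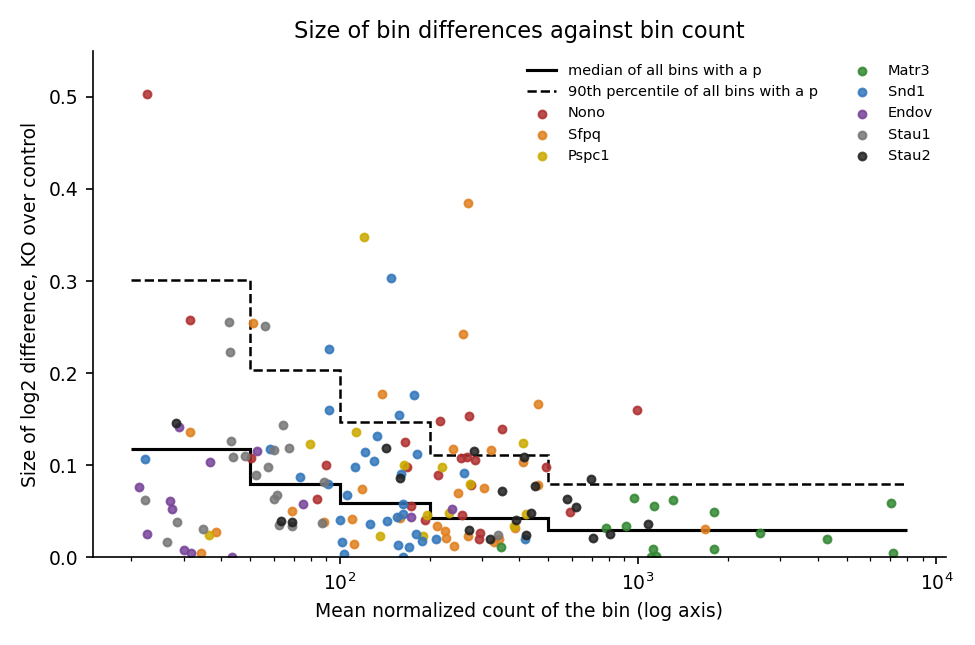
Size of the log2 difference of each member bin (y axis, knockout over control without its sign) against its mean normalized count (x axis, log axis), with steps for the median and the 90th percentile of all bins with a p in 5 classes of count. The E012 bin of Nono at 0.50 has a count of only 22.5, while the Sfpq, Pspc1 and Snd1 bins above 0.30 have counts over 100.

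Editing was compared at 143 sites, of which 39.2% fell and 9.09% rose in the knockout at an adjusted p under 0.05. Of the sites analysed here 0 lay in the 8 genes, so no editing level of these mRNAs is given. A target of the nuclear retention complex was listed. Slc7a2 encodes an amino acid transporter, and in mouse a nuclear transcript of this gene, with edited repeats in its 3' UTR, is the textbook case of an inosine-containing RNA kept in paraspeckles. Its listed site lies in a SINE repeat of the 3' UTR, at position 42003153 of chromosome 8 on mm9. Editing there was 21.6% in the knockout and 25.2% in the control in the authors' deposited table (adjusted p = 0.771), a difference of -3.65 points that did not pass. The gene level of Slc7a2 differed by 0.028 on the log2 scale, A over B, in the authors' deposited table (p = 0.873). None of its 15 listed bins had an unadjusted p under 0.05, and they lay between -0.14 at E010 and 0.30 at E017 (p = 0.0683 at E017) in the authors' deposited table. The coverage of the site is unknown, so how small a change it could show is not known either.

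Other genes of the same RNA pathways were read from 6 lists of related genes. Of their 96 measured genes none passed an adjusted p under 0.05, and 1 had an unadjusted p under 0.05 (1.04%, against 1.86% of all genes). In sign, 41 stood higher and 55 lower in A, with a median of -0.012.

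Of 37 further paraspeckle components 34 were measured, of which 0 passed. In sign 11 stood higher and 23 lower in A, with a median of -0.034 against 0.0063 over all genes, of which 47.1% stood lower. Hnrnph3, an RNA-binding splicing protein, was the gene with an unadjusted p under 0.05, at -0.20 in the authors' deposited table (p = 0.0241, adjusted p = 1), and it was also the lowest of the list. The highest was Fign, which encodes a microtubule-severing enzyme, at 0.45 in the authors' deposited table (p = 0.384). Neat1, the RNA on which paraspeckles form, was not found by name among the listed genes.

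Of 17 other double-stranded RNA binding proteins 15 were measured and 0 passed, 6 higher and 9 lower in A with a median of -0.0055. Their values ran from -0.050 for Zfr2 (p = 0.416) to 0.098 for Drosha, the nuclear microRNA-processing enzyme (p = 0.334), in the authors' deposited table. One of them, Son, had an edited codon, R/G, listed at 1.38% in the knockout and 33.04% in the control in the authors' deposited table (adjusted p = 2.63e-45), while its mRNA level differed by -0.0043 (p = 0.796). All 13 genes of the decay by UPF1 after Staufen binding were measured and 0 passed, 7 higher and 6 lower in A with a median of 0.0034. They ran from Upf2 at -0.11 (p = 0.25) to Dcp2, which encodes the mRNA decapping enzyme, at 0.070 (p = 0.618) in the authors' deposited table.

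Of 24 genes of neuronal RNA transport granules 23 were measured and 0 passed, 12 higher and 11 lower in A with a median of 0.00049. The lowest was Ddx3x, an RNA helicase gene, at -0.13 (p = 0.152), and the highest Zfp385a at 0.51 (p = 0.114) in the authors' deposited table. Of 10 genes listed for RNA silencing or as SND1 partners, all were measured and none passed. In sign 4 stood higher and 6 lower in A, with a median of -0.025. Which of the 10 bind SND1 was not tested. They ran from Ago4 at -0.11 (p = 0.264) to Ago2, the gene of the Argonaute protein that cuts target RNA, at 0.29 (p = 0.288) in the authors' deposited table.

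**Figure D4:**
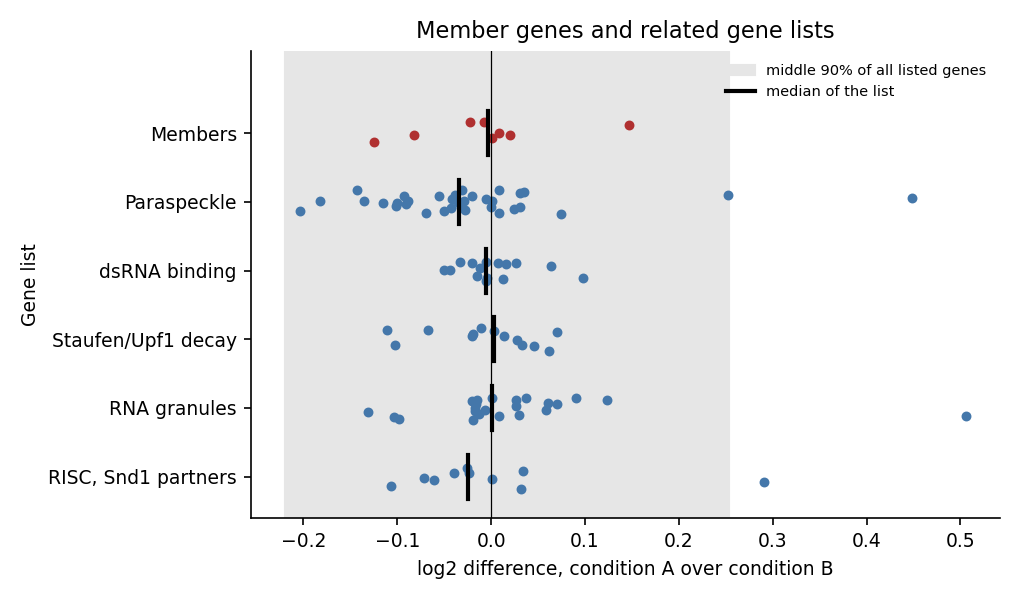
Log2 difference of mRNA level (x axis, condition A over condition B) of the 8 members and of 5 lists of related genes (rows; 1 point per gene, spread vertically to be seen; black bars are medians), over a grey band of the middle 90% of all listed genes. The medians lie between -0.034 for the paraspeckle list and 0.0034 for the decay list, and the points outside the band that are highest are Zfp385a at 0.51 and Fign at 0.45.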

How the data were processed

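The 3 deposited tables hold the authors' comparisons of 6 Adar2-/- Gria2R/R with 6 Adar2+/+ Gria2R/R libraries, made from total RNA after ribosomal RNA removal with a stranded kit, per the labels. Programs named in the submitters' processing notes, without roles, are DESeq, HTSeq, SAMtools 01.19.0, TopHat2 2.0.6 and Bowtie2 2.02.0, with the build mm9. Whether strand was used in counting is not given in the sources used here, nor is the exon bin program. Per the file headers, the gene table gives a mean normalized count (a signal), a ratio of B over A, its log2 value, and p-values; listed genes have a mean count of at least 15.0. The exon table gives a deposited mean count, a log2 ratio of control over Adar2, p-values and a dispersion score, which was not used; listed bins have a mean count of at least 20.0. The editing table gives the deposited percent of edited reads per genotype and an adjusted p-value; caller and coverage are not given. Another 2 columns hold means of A and of B and were left out, having no genotype in their header. Depth per library is unknown.

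Members were matched by symbol, RefSeq synonym (1 of 8) or Ensembl ID. Calls used the authors' p-values, adjusted over all features, at 0.05. Benjamini-Hochberg and Simes p-values were computed with numpy 2.4.6 and checked on simulated data. Near copies were sought with blastn. Named genes were the members, Adarb1, each list's extremes and any list gene with an unadjusted p under 0.05. Son fell under none of these rules and was named for its listed editing site. Named bins were each member's extreme bins and any bin with an unadjusted p under 0.05. Gm12940, Lrrc4, Slc7a2's bins and neighbouring bins were added after their values were seen. The members and lists were chosen with earlier results of these data known. No sequence is shown, as no member has a listed site.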

Additional observations from a re-analysis of the deposited data

How the results depend on the processing

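The count of 0 called members stayed at 0 when p-values were adjusted anew over the listed genes, by Bonferroni, at an adjusted p under 0.1, at an unadjusted p under 0.05 and with a mean count of at least 100. The count of 0 called bins stayed at 0 under new adjustment, Bonferroni, an adjusted p under 0.1, a mean count of at least 50 or 100 per bin, 1 Simes p per gene and without the joint Sfpq and Gm12940 bins (chosen after seeing the data). It became 4 at an unadjusted p under 0.05, all 4 with a mean count of at least 100, and 1 without the joint bins. Of the list genes, 0 passed with a mean count of at least 100, and 1 at an unadjusted p under 0.05. Centring on the median of all genes turned the sign of Snd1 alone among the 8, to -0.0055, as that median is larger than its difference; centring on a gene's own bins kept the sign of the 4 low-p bins. Adding 1 to condition means was not run, since those columns were not used, and leaving out libraries was not run, since no values per library are used. No paired analysis was possible because only group comparisons are in the tables used, and the labels give no litter. Low counts limit Endov and Stau1 bins.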
